A study of Rattus norvegicus with 18 samples.

Results

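The hypoxia-inducible factors and the proteins that pair with them or set their stability were followed in rat ovarian follicles around ovulation. The genes were Hif1a, Epas1, Hif3a, Arnt, Arnt2, Vhl, Hif1an and Egln2, and the members were the probe sets whose single gene symbol in the platform annotation is one of these. That gave 9 probe sets for 7 of the 8 genes, among 31042 probe sets without the controls and 14218 genes with a single-symbol probe set, and Hif1an had no such probe set. Of the 9, 6 passed the filter on low signals and were tested with the 18155 probe sets that passed it, and the signals of Hif3a and of both Arnt2 probe sets were too low for the test.

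Follicles of Crl:CD(SD) rats were cut by laser microdissection from frozen ovary sections 8 micrometres thick, 15 follicles in each phase, and their total RNA was hybridised to 18 arrays, 3 in each of 6 groups. Untreated rats gave the peri-ovulatory follicles of 22:00 on proestrus (control PeF) and the post-ovulatory follicles of 10:00 on estrus (control PoF). Rats given 4 mg/kg indomethacin (IM), an inhibitor of prostaglandin synthesis, by mouth at 16:00 of proestrus gave IM PeF at 22:00 and unruptured follicles, IM UF, at 10:00 of estrus. Rats given 100 mg/kg RU486 (RU), which blocks progesterone and glucocorticoid receptors, by mouth at 10:00 of proestrus gave RU PeF and RU UF at the same times. The control of the estrus groups had ruptured and the treated follicles had not, so treatment and rupture cannot be told apart at estrus. The labels give 3 animals for each treatment and time but tie no array to an animal, so the p-values measure the spread between these samples. Each follicle holds several cell types, and fewer cells of a type and less RNA per cell cannot be told apart in such samples.

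In the hypoxia pathway an alpha subunit (Hif1a, Epas1 or Hif3a) pairs with a beta subunit (Arnt or Arnt2) and binds hypoxia response elements. With oxygen present, prolyl hydroxylases such as Egln2 mark the alpha subunits, and the Vhl protein then directs them to degradation, while Hif1an hydroxylates a further site and blocks the binding of coactivators. Control of the alpha subunits is largely at the level of the protein, which arrays do not measure. In the ovary the pathway is known for its part in the vascularisation of the forming corpus luteum, and progesterone receptor signalling is reported to raise alpha subunit transcripts in the follicle before ovulation.

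The promoters of the 3 member genes the results turn on are shown to place the motifs discussed with this pathway. RefSeq sequence of build GRCr8 matched all 8 genes, and each window holds the 250 bases before the annotated transcription start, 5′ to 3′ on the strand of the gene. In Hif1a (chr6:98359648-98359897, plus strand) the capitals mark the core of the hypoxia response element, ACGTG or GCGTG, on either strand; in Epas1 (chr6:13624730-13624979, minus strand) and Vhl (chr4:148327849-148328098, plus strand) they mark GC boxes, GGGCGG on either strand.
Hif1a: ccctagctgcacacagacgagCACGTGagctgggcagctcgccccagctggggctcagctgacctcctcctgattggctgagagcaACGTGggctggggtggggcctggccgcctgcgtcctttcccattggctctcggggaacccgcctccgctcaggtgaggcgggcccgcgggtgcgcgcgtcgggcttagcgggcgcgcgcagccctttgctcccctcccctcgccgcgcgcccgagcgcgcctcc
Epas1: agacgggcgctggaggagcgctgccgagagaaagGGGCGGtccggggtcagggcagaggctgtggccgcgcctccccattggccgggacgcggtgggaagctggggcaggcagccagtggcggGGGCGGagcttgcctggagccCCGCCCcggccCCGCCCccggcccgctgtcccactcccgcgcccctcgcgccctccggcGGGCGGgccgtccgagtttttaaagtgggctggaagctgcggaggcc
Vhl: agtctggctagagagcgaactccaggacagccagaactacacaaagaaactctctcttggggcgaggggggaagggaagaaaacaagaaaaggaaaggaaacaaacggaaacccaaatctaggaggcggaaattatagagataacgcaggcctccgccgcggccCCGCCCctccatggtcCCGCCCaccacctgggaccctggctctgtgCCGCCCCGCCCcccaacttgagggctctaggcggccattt

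The Hif1a window held 3 matches to ACGTG, of which 2 were the opposite strands of one CACGTG. The Epas1 window held 5 GC boxes and the Vhl window 4, and neither held ACGTG or GCGTG. The half-site of progesterone and glucocorticoid receptors, TGTTCT, was in none of the 3 windows. Among 33469 windows of this length, 36.7% held ACGTG or GCGTG, 30.5% held GGGCGG and 17.5% held TGTTCT on either strand. A match is a description of the letters and not a binding site.

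The signals below were quantile normalized between arrays, because the deposited medians ran from 4.4 (control PeF 3) to 27.44. Differences are on the scale of log2(normalized signal + 2.79), given ± SE, and come from limma with Benjamini-Hochberg adjustment over all 18155 probe sets; a probe set was called at an adjusted p below 0.05. A background ceiling, the highest signal of 27 control probe sets without a spiked target, was set for each array. From 45.7% (control PeF 3) to 75.3% of an array's probe sets lay above it. The 3' minus 5' log2 signal of Gapdh, a sign of RNA quality, moved with the groups: it was 2.95 to 4.09 in control PeF and 2.65 to 2.94 in RU PeF, and 2.07 to 2.30 in control PoF and 2.86 to 3.26 in RU UF. Neither pair overlapped, nor did both control groups, while IM PeF (2.59 to 3.60) and IM UF (2.18 to 3.83) overlapped the control of their time. The same measure for beta-actin did not separate these groups. It was 3.84 to 5.74 in control PeF and 4.70 to 5.16 in RU PeF, and 4.90 to 5.15 in control PoF and 4.76 to 5.58 in RU UF. Of 13 tested granulosa markers, 12 or 13 were above background on each array, while the oocyte genes Bmp15 and Kit and the leukocyte gene Itgam were at background on all arrays. Other leukocyte and oocyte genes were detected. Of 12 tested leukocyte markers, 5 to 12 were above background in control PeF and 9 to 12 in RU PeF. Of 3 tested oocyte markers, 0 to 3 were above it in control PeF, 2 to 3 in RU PeF and 0 to 2 in IM UF.

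**Figure D1:**
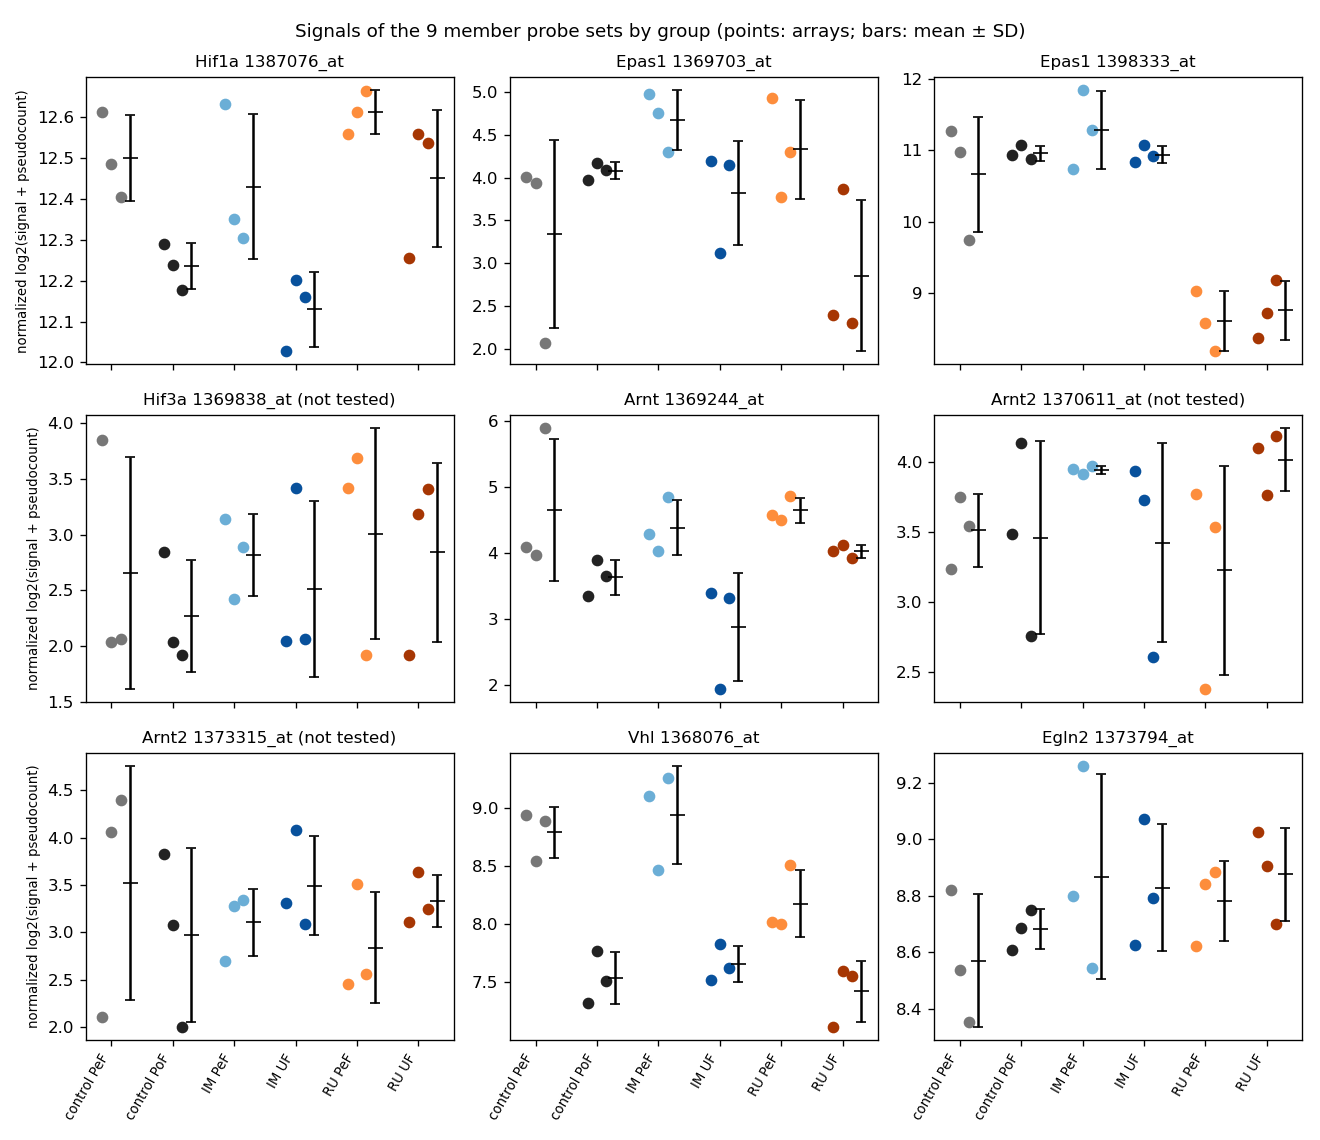
Normalized log2 signals (y axis, log2 of signal + 2.79) of the 9 member probe sets by group (x axis); points are arrays, and the bar beside them is the mean ± SD of 3. The Epas1 probe set 1398333_at lies lower on the 6 RU arrays than on the other 12, and Vhl lies lower in the estrus than in the proestrus groups of the same treatment; with the signals as deposited neither holds for control PeF 3, nor the second for IM PeF 2.

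The alpha subunit Epas1 was the member that moved most. Its bright probe set, 1398333_at, annotated to an expressed sequence tag, fell 4.17-fold under RU486 at proestrus and 4.60-fold at estrus, and no change was called under indomethacin. Control PeF had normalized signals of 2464, 2017 and 858, against 522, 381 and 291 in RU PeF. Control PoF had 1957, 2157 and 1872, against 327, 419 and 582 in RU UF. All 6 RU arrays lay below all 6 control arrays. RU PeF lay below control PeF (log2 difference -2.06 ± 0.32, 95% interval -2.74 to -1.38, limma, adjusted p = 0.00088). Of all probe sets tested, 7.42% were called in that comparison, and this was 1 of the 6 tested members. RU UF lay below control PoF (log2 difference -2.20 ± 0.32, limma, adjusted p = 0.000297), where 8.70% of probe sets were called and again 1 of 6 members. The RU486 effect at estrus minus that at proestrus was -0.14 (95% interval -1.11 to 0.82, limma, adjusted p = 0.901), so a difference between the times was not detected, and the interval allows about 1 log2 unit either way. The Gapdh 3' minus 5' signal also separated these groups, higher in control PeF than in RU PeF and lower in control PoF than in RU UF. That of beta-actin overlapped between them. The part of RNA quality in the Epas1 result was not tested.

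Under indomethacin the same probe set read 1713, 3669 and 2485 at proestrus (IM PeF), and at estrus (IM UF) 1828, 2148 and 1929. Both groups overlapped the control of their time. IM PeF differed from control PeF by 0.62 (95% interval -0.06 to 1.31, limma, adjusted p = 0.461). IM UF differed from control PoF by -0.02 (95% interval -0.70 to 0.66, limma, adjusted p = 1). Set against indomethacin directly, RU PeF was 6.43-fold lower than IM PeF (limma, adjusted p = 5.72e-05), in a comparison where 5.23% of probe sets and 2 of 6 members were called. RU UF was 4.54-fold lower than IM UF (limma, adjusted p = 0.000488), where 6.95% and 1 of 6 were called. No time course called 1398333_at: the later minus the earlier group was 0.30 in the controls, -0.35 under indomethacin and 0.15 under RU486. With the signals as deposited, the control time course was called higher instead (1.77, limma, adjusted p = 0.0456), where the median of all probe sets was 1.28. By group mean the order was IM PeF, control PoF, IM UF, control PeF, RU UF and RU PeF, and the only neighbours whose arrays did not overlap were control PeF and RU UF.

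**Figure D2:**
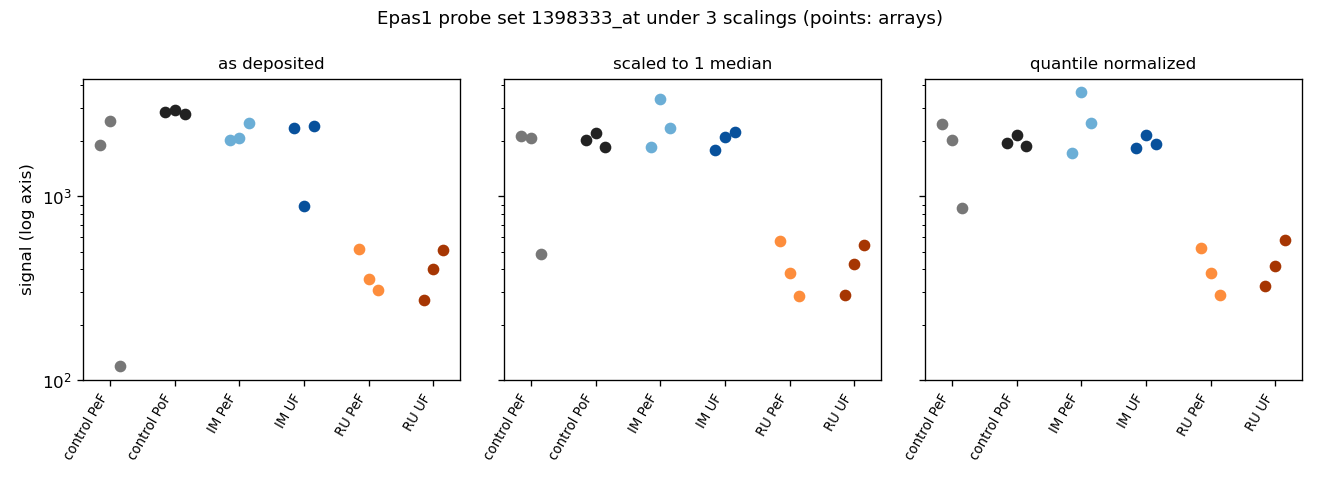
Epas1 probe set 1398333_at (y axis, signal on a log axis) in the 6 groups (x axis) as deposited, after scaling each array to one median and after quantile normalization; points are arrays. The deposited value of control PeF 3, 118.71, lies under all 3 RU PeF arrays, and after quantile normalization, at 858, it lies above them.

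The size of the proestrus difference varied with the scaling, and control PeF 3, the array with the lowest median, lay differently under each. As deposited it read 118.71 against 310 to 515 in RU PeF, while control PeF 1 and 2 read 1900 and 2571. After scaling to the median it read 488, between RU PeF 1 at 569 and RU PeF 2 at 380. The log2 difference was -1.12 (limma, adjusted p = 0.50) with the signals as deposited, so the call ended, -1.70 (0.0176) after median scaling, and -2.52 without control PeF 3 (adjusted p = 2.12e-05). The deposited signals also ended the calls of RU PeF against IM PeF (-2.50, adjusted p = 0.115) and of RU UF against IM UF (-2.16, adjusted p = 0.441), while that of RU UF against control PoF remained (-2.91, adjusted p = 0.0114). The ratio to Hif1a on the same array needs no scaling between arrays. As log2 it was -3.33 on control PeF 3, -1.52 and -1.42 on the other control PeF arrays, -4.42 to -3.75 in RU PeF, -1.28 to -1.13 in control PoF and -3.94 to -3.35 in RU UF. The ratio was lower on every RU array than on every control array, although the highest RU UF value and control PeF 3 nearly met.

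The other Epas1 probe set, 1369703_at, annotated to the RefSeq transcript, gave another picture at a far lower signal. It was above background on 14 of 18 arrays, and its normalized signals ran from 1.40 to 28.7. Control PeF read 13.3, 12.6 and 1.40, and RU PeF read 27.7, 10.9 and 16.9. RU PeF minus control PeF was 0.99 ± 0.54 (limma, adjusted p = 0.277), opposite in sign to 1398333_at and not called. RU UF read 2.45, 11.8 and 2.12 against 12.96, 15.3 and 14.2 in control PoF, a difference of -1.23 that was not called (limma, adjusted p = 0.198). Its one call was the RU486 time course, RU UF minus RU PeF at -1.48 ± 0.54 (limma, adjusted p = 0.0380), although the groups overlapped and only 1 of the 3 RU UF arrays was above background. That call ended in 5 of 24 alternatives. These were the fits without RU PeF 3, RU UF 1 or RU UF 3 (adjusted p = 0.0766, 0.129 and 0.138), without the filter (0.0620) and with the signals as deposited (0.174). The probe set lay above the array median on only 3 arrays, IM PeF 1, IM PeF 2 and RU PeF 1, which let it pass the filter on low signals, and without any one of these it was not tested. The 2 probe sets are therefore given apart, and levels are not compared between them.

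Hif1a was among the brightest signals of every array, at the 99.6th to the 99.8th percentile, with normalized signals from 4171 to 6496. Control PeF read 6267, 5734 and 5422 and control PoF 5006, 4834 and 4629. IM PeF read 6351, 5221 and 5060 and IM UF 4171, 4705 and 4577. RU PeF read 6029, 6267 and 6496 and RU UF 4890, 6029 and 5942. The differences between groups were small. Control PoF lay 1.20-fold below control PeF without overlap (log2 difference -0.27 ± 0.10, limma, adjusted p = 0.0467), and IM UF 1.23-fold below IM PeF (-0.30 ± 0.10, adjusted p = 0.0306). The first call stayed in only 12 of 29 alternatives. Of those that ended it, 11 left out 1 array. These arrays were control PeF 1 or 2, any control PoF or RU PeF array, IM UF 3, and RU UF 2 or 3. The second ended in 8 of 29: without IM PeF 1, IM UF 1 or IM UF 3, after median scaling (-0.21, adjusted p = 0.448), without the filter (0.0707), with only the groups compared (0.0783), without the variance trend (0.101) and with the signals as deposited (0.979). With the signals as deposited the first turned to 0.89, where the median of all probe sets was 1.28. No comparison with the controls of the same time called Hif1a: the RU486 differences were 0.11 at proestrus (95% interval -0.10 to 0.33) and 0.21 at estrus (-0.00025 to 0.43).

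Hif3a, whose splice forms include inhibitors of the other alpha subunits, was above background on 3 of 18 arrays, 1 each in control PeF, RU PeF and RU UF. Its highest deposited signal was 10.55 and it was not tested.

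Of the beta subunits, Arnt was dim and Arnt2 was near background. Arnt, the common partner of the alpha subunits, was above background on 16 of 18 arrays. It lay above the array median on 5 arrays, control PeF 3, IM PeF 3 and the 3 RU PeF arrays. Arnt thus passed the filter on low signals through proestrus arrays only, so its fall to estrus is not independent of the filter. With a filter at 9 arrays it was not tested. IM PeF read 16.7, 13.5 and 25.9 against 7.70, 1.06 and 7.20 in IM UF, a log2 difference of -1.50 ± 0.48 without overlap (limma, adjusted p = 0.0227); only 1 of the 3 IM UF arrays was above background. The call ended in 6 of 28 alternatives. Among them were the fits without IM PeF 1, IM PeF 3 or IM UF 2 (adjusted p = 0.05002, 0.0984 and 0.122). It also ended with a pseudocount of 16.4, the median deposited signal (-0.69, limma, adjusted p = 0.0535), and with the signals as deposited (-1.31, 0.386). Control PeF read 14.2, 12.8 and 56.3, the last from a deposited 8.47 on control PeF 3, and control PoF read 7.46, 12.0 and 9.83. The difference of -1.01 between them was not called (limma, adjusted p = 0.104). RU PeF read 21.0, 19.7 and 26.3 and RU UF 13.6, 14.6 and 12.4, with no call in any RU486 comparison. The Arnt2 probe sets 1370611_at and 1373315_at were above background on 11 and 9 of 18 arrays, with highest deposited signals of 19.62 and 17.01.

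Vhl, the substrate-recognition subunit that marks alpha subunits for degradation, fell from proestrus to estrus in the controls and under both drugs, although with the signals as deposited all 3 calls ended and the control difference was 0.21. Control PeF read 490, 370 and 472 and control PoF 157, 215 and 180. IM PeF read 547, 350 and 609 and IM UF 181, 224 and 194. RU PeF read 256, 253 and 361 and RU UF 136, 190 and 185. In each treatment the 3 estrus arrays lay below the 3 proestrus arrays. Control PoF was 2.39-fold below control PeF (-1.26 ± 0.21, limma, adjusted p = 0.000158), IM UF 2.44-fold below IM PeF (-1.29 ± 0.21, 0.000149), and RU UF 1.69-fold below RU PeF (-0.75 ± 0.21, 0.00857). The RU486 fall was the smallest, and the test of its difference from the control fall was not called (0.50, 95% interval -0.12 to 1.13, limma, adjusted p = 0.385). The RU486 call ended without RU PeF 3 or RU UF 1 (adjusted p = 0.0551 and 0.0531). Lower calls were common in these time courses, at 18.5%, 17.0% and 19.9% of all probe sets, and 39.6%, 33.3% and 38.8% were called in either direction, so the 2, 3 and 2 of 6 members called are no result about the members as a set.

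With the signals as deposited, control PoF minus control PeF for Vhl had an adjusted p of 0.817, and it was -1.06 relative to the median of all probe sets. The drug time courses of Vhl were then -1.31 under indomethacin (limma, adjusted p = 0.581), with IM PeF 2 at 184 below IM UF 1 and 3 at 236 each, and -0.90 under RU486 (0.704), without overlap. Control PoF minus control PeF for Vhl was -0.91 after median scaling (limma, adjusted p = 0.0169), and -1.21 without control PeF 3 (adjusted p = 0.000709). At proestrus the 3 RU PeF arrays of Vhl lay below the 3 control PeF arrays, a difference of -0.62 ± 0.21 that was not called (limma, adjusted p = 0.0832). Against IM PeF it was -0.77 and called (0.0405), with overlapping groups. That call ended without any one of control PoF 3, IM PeF 1, IM PeF 3, IM UF 3, RU PeF 1, RU PeF 2 or RU UF 3 (adjusted p from 0.0514 to 0.18). At estrus neither drug group differed by a called amount from control PoF: 0.12 for indomethacin (95% interval -0.32 to 0.57) and -0.11 for RU486 (-0.56 to 0.33).

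Egln2, a prolyl hydroxylase, held between 324 and 610 on all arrays. Its lowest, median and highest normalized signals were 324, 434 and 610, it was called in no comparison, and the F test over the 6 groups gave an adjusted p of 0.522. The largest group difference among the control comparisons was 0.30, in IM PeF against control PeF (95% interval -0.07 to 0.66). No member was called in IM PeF against control PeF, where 0% of probe sets were called (2074 had an unadjusted p below 0.05), nor in IM UF against control PoF, where 0.0330% were called. In the difference of the RU486 effects between the times, 4.02% of probe sets and no member were called, and in that of the indomethacin effects no probe set was called, with 1641 at an unadjusted p below 0.05.

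**Figure D3:**
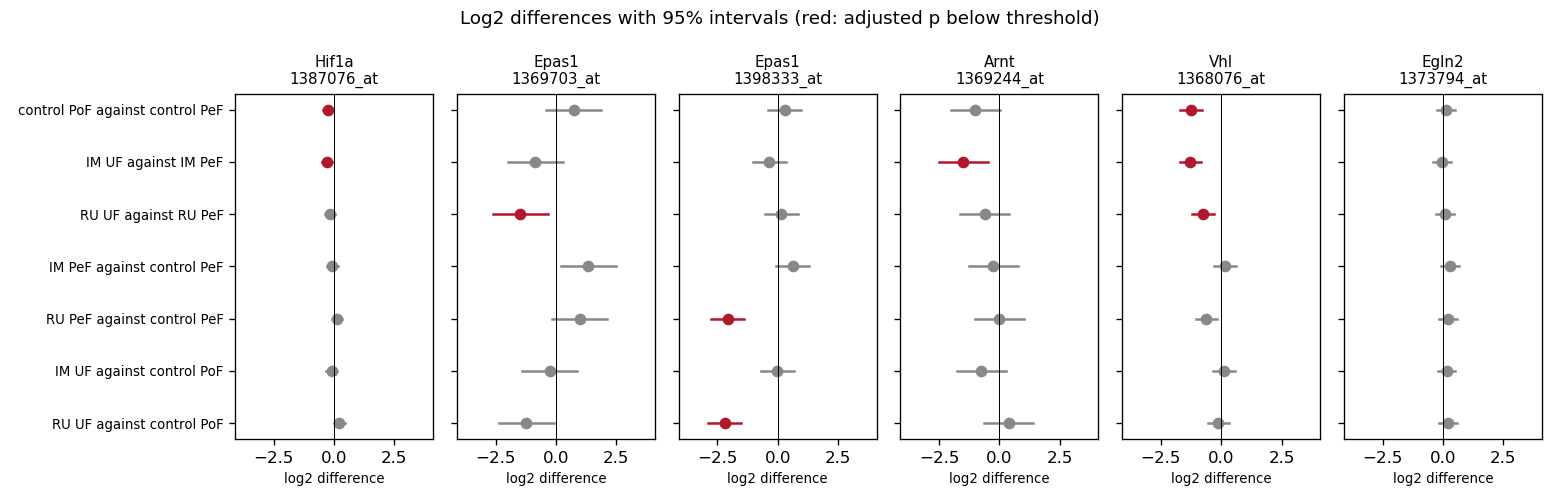
Log2 differences (x axis) of the 6 tested member probe sets in 7 comparisons (y axis), with points for the estimate and lines for the 95% interval; red marks an adjusted p below 0.05. Epas1 1398333_at is red in both RU486 comparisons with the controls, and Vhl in all 3 time courses.

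Members were also described by the genes whose pattern over the 18 arrays was most like theirs, as Pearson correlations that share the arrays and their normalization. For Epas1 1398333_at these were Cryab, a small heat shock protein (r = 0.962), Xlr5c (0.950) and Cmas, which activates sialic acid (0.936). Cryab averaged 7.80 log2 units in control PeF and 4.69 in RU PeF, and Xlr5c 9.66 and 4.04. For Vhl they were Sgsm3 (0.957), Cdyl (0.945) and Ywhaz (0.944), for Hif1a Zfp668 (0.894), Csnk1g2 (0.875) and Stk38l (0.859), and for Arnt Cdk19 (0.915), Gja4 (0.902) and Cep76 (0.898).

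The other prolyl hydroxylases were called in the control time course, where Egln2 was not. Egln3, itself induced by the hypoxia-inducible factors, rose by 3.07 ± 0.51 from control PeF to control PoF (limma, adjusted p = 0.000148). Against control PoF its log2 difference was -2.99 in IM UF (adjusted p = 0.0480) and -3.86 in RU UF (0.000103), and its difference in RU PeF was -0.02. Egln1 rose by 0.89 ± 0.22 from control PeF to control PoF (limma, adjusted p = 0.00354) and was called in no treated comparison with the controls. Of the 14 oxygen sensors and partners of the Vhl ubiquitin ligase, 4 rose and 1 fell in the control time course, where 39.6% of all probe sets were called, so the count is no result about the list. Besides Egln1 and Egln3, Elob, a subunit of the ligase, rose (0.39) and Siah2, a ligase that acts on prolyl hydroxylases, fell (-0.95). None was called in RU PeF or IM PeF, 1 fell in IM UF (0.0330% of all probe sets called), and 2 fell in RU UF (8.70%), Egln3 and Eloc (-0.40). The list medians were -0.03 in RU PeF and -0.06 in RU UF, against 0.06 and -0.02 over all probe sets.

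Among 17 tested coactivators, chaperones and other partners, 4 rose and 3 fell in the control time course, again near the 39.6% called over all probe sets. The acetyltransferases Ep300 (-1.25) and Crebbp (-0.88) and the transcription factor Foxo3 (-1.21) fell, and the chaperone Hspa4 rose (1.63). In RU PeF, Foxo3 (-0.80, limma, adjusted p = 0.00147) and Ep300 (-0.87, 0.00958) were lower than in control PeF, and in RU UF the acetyltransferase Kat2b was lower than in control PoF (-0.71, 0.0303). None was called in either indomethacin group against its control. Over all probe sets 7.42% were called in RU PeF against control PeF and 8.70% in RU UF against control PoF. The list median was 0.09 in RU PeF and -0.01 in RU UF, against 0.06 and -0.02 over all probe sets. Of 8 tested relatives of the bHLH-PAS family, to which the alpha and beta subunits belong, the clock genes Per1 (-0.78) and Per2 (-1.07) fell in RU PeF. Over all probe sets 7.42% were called there. In RU UF, Per1 (0.92), Per2 (1.15) and Per3 (2.38) were higher than in control PoF and Npas2 (-1.33) and Bmal1 (-1.29) lower, where 8.70% of all probe sets were called. None was called in IM PeF or IM UF against the controls. In the control time course, where 39.6% of all probe sets were called, 4 fell, with Per1 (-1.79) and Npas3 (-2.22) among them, and 1 rose, Bmal1 (1.03).

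**Figure D4:**
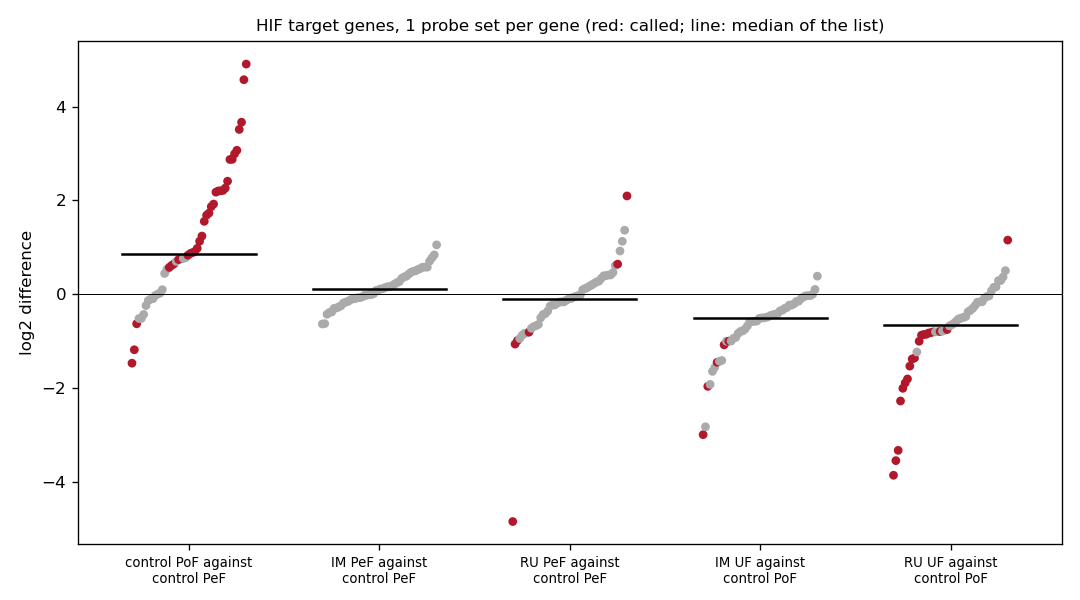
Log2 differences (y axis) of the 50 tested target genes of the hypoxia-inducible factors, 1 probe set per gene, in 5 comparisons (x axis), in ascending order within each; red points were called and the line is the list median. The medians are 0.85 in the control time course, 0.10 for IM PeF, -0.10 for RU PeF, -0.51 for IM UF and -0.66 for RU UF.

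Widely reported target genes of the factors were called in all 3 time courses, at estrus under both drugs and at proestrus under RU486. Of 50 tested, 31 rose and 3 fell from control PeF to control PoF, where 39.6% of all probe sets were called, with a median of 0.85 against 0.04 over all probe sets. From IM PeF to IM UF 19 rose and 8 fell (33.3% of all probe sets called), with a median of 0.36 against -0.03. From RU PeF to RU UF 20 rose and 7 fell (38.8% called), with a median of 0.42 against -0.02. In the test of the RU486 time course against that of the controls, 10 targets were lower and 2 higher (4.02% of all probe sets called), and in that of indomethacin none was called. In the control time course the cytokine Mif (2.99), the glycolytic enzyme Pfkp (1.73), the heme oxygenase Hmox1 (2.41) and the mitophagy receptor Bnip3 (3.51) had the smallest adjusted p. In RU UF against control PoF, 19 fell and 1 rose, where 8.70% of all probe sets were called, with a median of -0.66, and Ndrg1 (-3.33), Pfkp (-1.36), Hmox1 (-1.81) and Egln3 led. The riser, Pfkfb4 (1.15, named after its value was seen), was not called without control PoF 3, RU UF 2 or RU UF 3. In IM UF against control PoF 5 fell and none rose, where 0.0330% of all probe sets were called, with a median of -0.51: Gbe1 (-1.08), Ndrg1 (-1.96), Hmox1 (-1.45), Ero1a (-1.001) and Egln3. The number of targets that fell in IM UF was 1 without control PoF 1, control PoF 2, IM UF 2 or IM UF 3, 3 without IM PeF 3, RU PeF 2, RU UF 2 or RU UF 3, and 10 without control PeF 3. In RU PeF against control PeF 4 fell and 2 rose, where 7.42% of all probe sets were called, with a median of -0.10: the chemokine receptor Cxcr4 (-4.85), the glycolytic regulator Pfkfb3 (-0.99) and the collagen hydroxylase P4ha2 (-1.06) fell and Bhlhe40 rose (2.09). Without control PeF 3, 7 fell. The risers were 5 without control PeF 2, and 1 without RU PeF 1 or RU PeF 2. In IM PeF no target was called. The list was chosen with results of these data known and is not independent evidence of a direction.

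Of 11 tested genes reported to depend more on Epas1 than on Hif1a, 1 fell in RU PeF, the endothelial receptor Tek (-0.84 ± 0.21, limma, adjusted p = 0.0200), and 1 in RU UF, its ligand Angpt2 (-1.49 ± 0.26, adjusted p = 0.00117). None rose in either. Over all probe sets 7.42% were called in RU PeF and 8.70% in RU UF, so these counts are no result about the list. None was called in IM PeF or IM UF against the controls. The list medians were 0.06 in RU PeF and -0.32 in RU UF, against 0.06 and -0.02 over all probe sets. In the control time course, Dll4 (1.37) and Tgfa (0.53) rose and Sod2 (-1.28) and Kdr (-0.84) fell, where 39.6% of all probe sets were called.

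Epas1 is known for its high expression in endothelium, and the summed signal of endothelial and of smooth muscle markers was lower in both RU groups than in their controls, although few single markers were called. The summed normalized signal of 14 tested endothelial markers was 1631 to 1663 in control PeF and 1098 to 1348 in RU PeF, and 1411 to 1479 in control PoF and 849 to 1167 in RU UF. It was also below the controls under indomethacin, where Epas1 1398333_at overlapped them, at 1265 to 1444 in IM PeF and 1122 to 1164 in IM UF. In RU PeF 2 of the 14 fell (Tek and Emcn) and in RU UF 1 did (Eng). The sum of 12 smooth muscle and pericyte markers was 783 to 920 in control PeF and 371 to 440 in RU PeF, and 1228 to 1517 in control PoF and 789 to 955 in RU UF; 4 fell in RU PeF and 1 in RU UF. Over all probe sets 7.42% were called in RU PeF and 8.70% in RU UF. Under indomethacin the smooth muscle sum was 589 to 709 in IM PeF, also below control PeF. In IM UF it was 1516 to 1740, which overlapped control PoF. No marker of either list was at background on all arrays. Granulosa markers summed to 30864 to 37338 in control PeF and 35352 to 43187 in RU PeF, with 2 of 13 higher and 2 lower. At estrus they summed to 28746 to 31091 in control PoF and, without overlap, 36300 to 40952 in RU UF, with 3 higher and none lower. Of 8 theca markers 3 fell in RU PeF, and in RU UF 3 rose and 1 fell. Their sums overlapped at proestrus, at 13258 to 16055 in control PeF and 13040 to 16831 in RU PeF. At estrus they were 15358 to 15497 in control PoF and, without overlap, 19796 to 21491 in RU UF. Of 12 leukocyte markers 1 rose and 1 fell in RU PeF and none was called in RU UF, and no oocyte or erythrocyte marker was called in either. The sum of the 2 tested erythrocyte markers was 222 to 405 in control PoF and, without overlap, 162 to 219 in RU UF. At proestrus it overlapped, at 383 to 1638 in control PeF and 343 to 694 in RU PeF. The part of these cell types in the Epas1 result was not tested.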

How the data were processed

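Biotin-labelled RNA of the microdissected follicles was hybridised to Affymetrix arrays, each sample on 1 array, as the labels' protocols state. The deposited values are intensity on a linear scale, never below 1. The submitters' processing notes name MAS5, with no version, scaling or role stated in the sources used here. Because deposited medians differed between arrays, signals were quantile normalized, and a pseudocount of 2.79, their 20th percentile as deposited, went in before log2. Control probe sets (57) were excluded. A probe set was tested if it exceeded the array median on 3 or more of 18 arrays, which left 18155. limma 3.58.1 in R 4.3.3 fitted 1 mean per group over all 18 arrays, with a variance trend and 12 residual degrees of freedom, and Benjamini-Hochberg adjustment was made within each of 11 comparisons at 0.05. The script was tested on simulated data. An exact permutation test of 3 against 3 cannot go below a two-sided p of 0.1, so only limma was used for single probe sets.

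The platform annotation gave 1 symbol for 20832 probe sets and several for 436. All member probe sets are named. From the pathway lists (oxygen sensors and Vhl partners, coactivators and other partners, bHLH-PAS relatives, target genes, targets that depend on Epas1) called genes are named, up to 4 per comparison by adjusted p, with Egln1 and Egln3 always (Bmal1 in RU UF and Pfkfb4 were named beyond this rule, after their values were seen); each gene is represented by its brightest tested probe set, and Egln1 and Egln3 are in 2 lists. Cell type lists covered granulosa, theca, endothelium, smooth muscle, leukocytes, oocyte and erythrocytes. Likeness was read for the 4 members with the largest F, as the 3 genes with the highest correlation. Members and lists were chosen with earlier results of these data known. Alternatives changed the scaling, pseudocount, filter, samples fitted, variance trend, array weights and replicate block, and left out each array in turn and the 3 dimmest together. Plots came from matplotlib 3.10.9 (Python 3.11.15).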

Additional observations from a re-analysis of the deposited data

How the results depend on the processing

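Across 29 alternatives, the fall of Epas1 1398333_at in RU UF against control PoF stayed called in all, and that in RU PeF against control PeF in 28, with log2 differences from -2.91 to -2.01 and from -2.52 to -1.12. Signals as deposited gave member counts of 1 in control PoF against control PeF, where the calls of Hif1a and Vhl were lost (adjusted p = 0.198 and 0.817) and Epas1 1398333_at was called higher (1.77, adjusted p = 0.0456), and 0 in RU PeF against control PeF, in both drug time courses and in RU against IM at both times, and turned the control time course of Hif1a to 0.89 and of Vhl to 0.21; control PeF 3 is the dimmest array there. In control PoF against control PeF the count was 1 after median scaling, without the filter, with only the groups compared and without the variance trend. In RU PeF against IM PeF it was 1 under the same 4. In the RU486 time course it was 1 without the filter, with a filter at 9 arrays and without the 3 dimmest arrays, and in the indomethacin time course 1 with only the groups compared. Array weights gave 1 in IM PeF against control PeF (Vhl, 0.63, adjusted p = 0.00551), 2 in RU UF against control PoF, 3 in RU PeF against IM PeF (Hif1a at 0.27, adjusted p = 0.0130) and 2 in RU UF against IM UF, and leaving out the 3 dimmest arrays gave 2 in the last, each of these 4 adding Hif1a. Leaving out 1 array at a time gave counts from 1 to 2 in control PoF against control PeF, RU PeF against control PeF, RU PeF against IM PeF and RU UF against IM UF, from 1 to 3 in IM UF against IM PeF, and from 0 to 2 in RU UF against RU PeF. Over all alternatives the target genes counted as lower ran from 1 to 11 in RU PeF (main 4), from 1 to 15 in IM UF (main 5) and from 6 to 26 in RU UF (main 19), and those counted as higher in the control time course from 26 to 36 (main 31). Same-numbered arrays did not deviate together (median r -0.007 over 45 pairs, none of 18 arrays correlating best with its own number), so the numbers were not taken as pairs; with the replicate block the count in control PoF against control PeF was 1, since Hif1a had an adjusted p of 0.0655. Median scaling put 74.6% of the calls of control PoF against control PeF higher and 75.0% of those of RU PeF against control PeF, against 53.2% and 45.8% after quantile normalization. Among called members' differences 286 values kept direction and call, 54 kept direction only and 2 reversed. Dim probe sets (Hif3a, Arnt, Arnt2, Epas1 1369703_at) lie near background, which limits what can be read from them.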
